A study of Mus musculus with 4 samples.

Results

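Pthlh, 1 of the 31053 genes counted in these libraries, encodes parathyroid hormone-related protein. It was chosen from measured values of these same libraries, namely its UMI sum, its level, its share of positive cells and its co-varying genes per library and cell class. Those values are therefore given as a description, without a test of the classes against each other. The libraries are single-cell 3′ RNA libraries of mammary epithelial cells from the fourth glands of 4 FVB mice, 1 mouse per library. All 4 mice, the controls included, carried homozygous floxed Tfap2c alleles (Tfap2c fl/fl) and the Krt5-CreERT2 transgene. In this transgene the Krt5 promoter limits Cre to cells that use it, and 4-hydroxytamoxifen (4OHT) activates the enzyme. The 2 control mice were given corn oil, the vehicle, and the other 2 mice 4OHT, by daily intraperitoneal injection from week 4. Glands were taken at week 9 of age. The labels give the course of injections as 5 days in one place and as a week in others.

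The secreted peptide acts on Pth1r, the receptor it shares with parathyroid hormone, mostly on neighbouring cells. In the embryonic gland, Pthlh from the epithelial bud instructs the surrounding mesenchyme, and buds without it do not form ducts or a nipple. In lactation the mammary epithelium releases the peptide to mobilise calcium from bone, under the control of the calcium-sensing receptor Casr. Tumours that release it raise blood calcium.

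In the GENCODE M21 annotation of GRCm38, Pthlh (ENSMUSG00000048776) lies on the minus strand of chromosome 6 at chr6:147252101-147264183. It has 2 protein-coding transcripts of 4 exons each, a coding sequence of 525 bases before the stop codon and a 3′ untranslated region of up to 470 bases, near which 3′ libraries count. No other gene overlaps it. The nearest neighbours are the lincRNA Gm15767, 8300 bases away, and the processed pseudogene Gm15766, 7654 bases away. The stretch before the annotated starts is shown because Tfap2c, the targeted gene, encodes a DNA-binding factor and because genes of the response to low oxygen varied with Pthlh (below). It covers 80 bases at chr6:147264184-147264263 (RefSeq, GRCm38.p6), read 5′ to 3′ on the minus strand.
Pthlh: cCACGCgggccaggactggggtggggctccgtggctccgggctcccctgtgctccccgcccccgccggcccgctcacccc
The capitals mark the only motif match in it, a hypoxia response core of the form GCGTG on the opposite strand. Both strands were searched for the AP-2 motif GCCNNNGGC, for the AP-1 motif TGANTCA, for the Ets motif CCGGAA and for the hypoxia response core in its forms GCGTG (weaker) and ACGTG (stronger). The weaker core was held by 8.64% of the same 80-base stretches of 32851 promoters. In the whole RefSeq promoter window of 300 bases, the weaker core occurred at 3 places and the Ets motif at 1, and the other motifs did not occur. Of all promoter windows, 32.4% held the weaker core, 14.9% the Ets motif, 16.6% the AP-2 motif, 19.6% the stronger core and 7.81% the AP-1 motif. The window is rich in G and C, at 74.0% against a median of 52.7%. These matches are a description of letters.

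Cells were sorted into classes by raw UMIs, each UMI standing for 1 captured transcript. Of 18223 deposited cells, 17832 had at least 1000 UMIs. A cell was basal when the 4 basal transcripts Krt5, Krt14, Krt17 and Acta2 summed to at least 5 and to more than 3 times the 3 luminal keratins Krt8, Krt18 and Krt19. Luminal cells met the mirrored rule. They were called hormone-sensing when Ly6d, Fxyd2 and Gpx3 reached 3 UMIs and exceeded Wfdc18, Csn3 and Ltf, and progenitor otherwise. This gave 7028 basal, 5629 progenitor and 1168 hormone-sensing cells. The basal label held against markers that the rule did not use. Trp63, Oxtr, Myh11, Cnn1 and Mylk were all detected in basal cells of every library, with a summed level of 1309 to 1671 CPM (the UMIs of a gene over all UMIs of the same cells, scaled to one common total). The luminal markers Epcam, Cldn3 and Cldn4 were also present there, at 858 to 1137 CPM. Sums of 5 markers each in basal cells reached 9.10 to 55.1 CPM for endothelial cells, 10.8 to 66.5 CPM for fibroblasts, 8.76 to 20.3 CPM for leukocytes and 1.07 to 3.79 CPM for pericytes. The sum for skin keratinocytes (Krt1, Krt10, Krtdap, Lor and Sbsn) was 48.8 to 62.4 CPM. The groups overlapped in the endothelial, fibroblast and keratinocyte sums. Leukocyte markers were lower in 4OHT, at 8.76 and 11.2 CPM against 11.5 and 20.3 CPM, and Ptprc, their defining gene, had no UMI in basal cells of any library. Pericyte markers were higher in 4OHT, at 2.53 and 3.79 CPM against 2.47 and 1.07 CPM.

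Total counts ran from 17351950 to 22017878 UMIs per library, and 18 to 36 cell barcodes were shared between any 2 libraries. The targeted gene was measured first. Basal Tfap2c stood at 389 and 285 CPM in corn oil replicates 1 and 2 and at 285 and 325 CPM in 4OHT replicates 1 and 2. The groups overlapped, and the fitted log2 change was -0.08 ± 0.25 (SE; edgeR quasi-likelihood test, adjusted p = 0.999). A 3′ count outside the floxed exons does not test the deletion, and the labels do not name those exons. Nor do the libraries tell which cells had recombined.

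Basal cells held 3321 Pthlh UMIs. The basal level was 107.6 CPM in corn oil replicate 1, from 871 UMIs, and 87.2 CPM in replicate 2, from 570 UMIs. It was 150.4 CPM in 4OHT replicate 1, from 893 UMIs, and 149.8 CPM in replicate 2, from 987 UMIs. Both 4OHT libraries were above both corn oil libraries. Over the 4 libraries the mean was 124 ± 31.6 CPM (SD, n = 4).

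**Figure D1:**
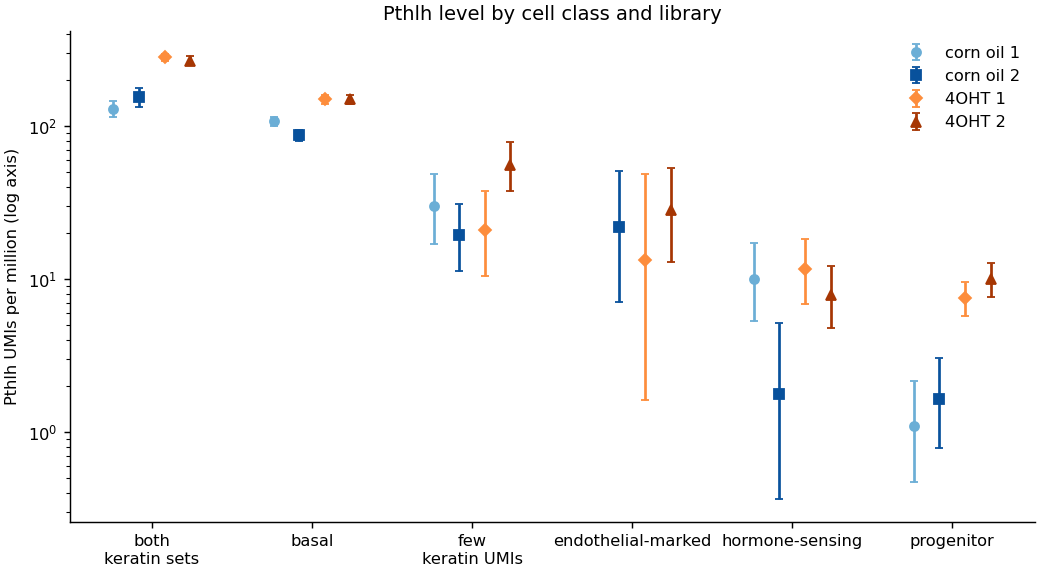
Pthlh level in CPM on a log axis for 6 cell classes, 1 point per library, with exact 95% Poisson intervals that cover counting error only. Cells with both keratin sets and basal cells sit highest, between 87.2 and 283 CPM, and progenitor and hormone-sensing cells lowest, between 1.10 and 11.6 CPM; corn oil replicate 1 had no Pthlh UMI among its 6 endothelial-marked cells and has no point there.

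In progenitor cells, the luminal cells that give rise to milk-producing cells, the level was 1.10 CPM (8 UMIs) and 1.65 CPM (10 UMIs) in the corn oil libraries. In the 4OHT libraries it was 7.5 CPM (63 UMIs) and 9.98 CPM (62 UMIs). Hormone-sensing cells, which carry the receptors for ovarian hormones, held 10.0 CPM (13 UMIs) and 1.76 CPM (3 UMIs) in corn oil and 11.6 CPM (18 UMIs) and 7.87 CPM (20 UMIs) in 4OHT. Fibroblast markers in hormone-sensing cells summed to 243 and 53.5 CPM in corn oil and to 1339 and 238 CPM in 4OHT. Cells with 3 or more of these marker UMIs made up 18.5% and 3.03% of the class in corn oil and 36.7% and 9.62% in 4OHT. In corn oil replicate 1, 4 of the 5 markers had no UMI, and in 4OHT replicate 1 all 5 were detected. Their part in the Pthlh values was not tested. The basal level was 97.8, 52.8, 20.1 and 15.01 times the progenitor level in corn oil replicates 1 and 2 and 4OHT replicates 1 and 2. The means of progenitor cells (5.06 ± 4.38 CPM, SD, n = 4) and hormone-sensing cells (7.81 ± 4.31 CPM, SD, n = 4) lay within their spread of each other, and both classes stayed below basal cells in every library. The 260 cells marked by endothelial transcripts held 16 Pthlh UMIs, at 0 to 28.2 CPM by library. The 151 fibroblast-marked cells held 6, none of them in the corn oil libraries. The 76 leukocyte-marked cells held 13, of which 9 lay in 4OHT replicate 1, so too few cells of these kinds were present to place their level. The 870 cells with fewer than 5 UMIs of each keratin set and no other mark held 29.9 and 19.4 CPM in corn oil and 21.04 and 55.6 CPM in 4OHT.

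In droplet data, free RNA from other cells can leave UMIs in a cell that does not make a transcript. As a measure of this, progenitor cells of corn oil replicate 1 held Pthlh at 1.02% of its basal level. For 9 other basal transcripts (Trp63, Oxtr, Myh11, Cnn1, Mylk, Krt5, Krt14, Krt17 and Acta2) this share was 1.5% to 3.82% there. In corn oil replicate 2, Pthlh stood at 1.90% within a range of 1.17% to 2.41%. In corn oil progenitor cells Pthlh thus lay below or within the range of the other basal transcripts. The part of free RNA in these values was not tested. In 4OHT replicate 1 Pthlh stood at 4.98%, within a range of 1.98% to 6.08%, and 2 of the 9 transcripts, Oxtr and Krt17, had a higher share. In 4OHT replicate 2 it stood at 6.66%, above all 9, whose highest was 3.10%.

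A Pthlh UMI was found in 23.0% and 16.6% of basal cells in corn oil and in 24.6% and 22.1% in 4OHT. Median depth differed between these groups of cells, from 2827.5 to 5152.5 UMIs, so each cell was thinned to 2000 UMIs. Thinning left out 34 and 183 shallower basal cells of the corn oil libraries and 111 and 379 of the 4OHT libraries. At equal depth the share was 14.6% and 12.2% in corn oil and 17.1% and 17.7% in 4OHT. In progenitor cells, whose median depth was 3473 to 5281.5 UMIs, the thinned share was 0.16% and 0.46% in corn oil and 1.10% and 1.31% in 4OHT. In hormone-sensing cells the thinned share was 0.66% and 0.61% in corn oil, of 151 and 326 cells. It was 2.12% and 1.61% in 4OHT, of 236 and 436 cells, so few positive cells stand behind these values. Thinned shares were thus higher in both 4OHT libraries in each of these classes.

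The UMIs were spread unevenly over basal cells. Cells with 5 or more Pthlh UMIs made up 3.07% and 0.98% of basal cells in corn oil and 3.66% and 1.70% in 4OHT. They held 40.2% and 21.2% of the basal Pthlh UMIs in corn oil and 44.0% and 24.9% in 4OHT. The largest count in 1 cell was 38, in 4OHT replicate 1. At equal depth, the variance of the count was 1.95 to 2.40 times its mean in the 4 libraries, where a ratio of 1 is expected from counting alone.

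Near the limits of the class the level of Pthlh varied. Just inside the keratin limit (basal sum above 3 and at most 4 times the luminal sum), 773 cells held 98.3 to 255 CPM by library. Just outside it (above 2 and at most 3 times), 937 cells held 113 to 253 CPM, above the basal level of the same library in all 4. Just inside the limit of 5 basal UMIs, with 5 to 9, 282 cells held 34.3 to 152 CPM, and just outside it, with 1 to 4, 240 cells held 16.8 to 75.6 CPM, below the basal level in all 4 libraries. The 166 shallowest basal cells, just above the limit of 1000 UMIs, held 0 to 61.8 CPM from 11 Pthlh UMIs, and the 70 cells under 1000 UMIs that met the keratin rule held 0 to 47.4 CPM from 1.

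The cells outside that limit led to a class that was added after these values were seen. It held 2315 cells with at least 5 UMIs of each keratin set and neither sum over 3 times the other. They made up 9.66% and 6.61% of cells in corn oil and 17.8% and 16.0% in 4OHT. Their Pthlh level was 130 and 155 CPM in corn oil and 283 and 268 CPM in 4OHT, 1.21, 1.78, 1.88 and 1.79 times the basal level of the same libraries. Of all Pthlh UMIs, 24.3% and 23.4% in corn oil and 56.2% and 41.6% in 4OHT came from these cells, against 70.9%, 71.6%, 37.8% and 50.5% from basal cells. In 4OHT replicate 1 the cells with both keratin sets thus held more Pthlh UMIs than the basal cells.

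**Figure D2:**
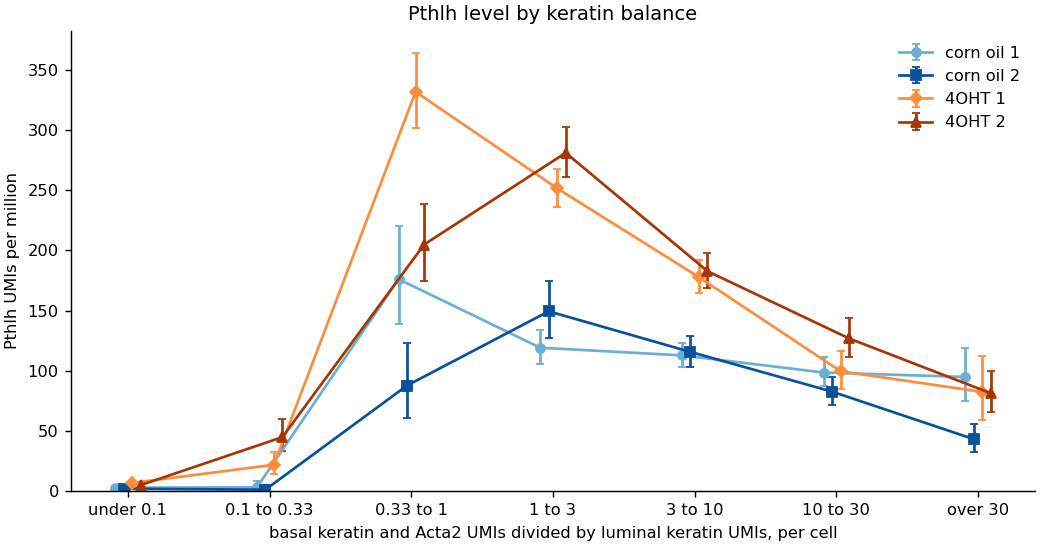
Pthlh level in CPM (vertical axis) against the ratio of basal to luminal keratin UMIs per cell (horizontal axis), for cells with at least 10 keratin UMIs, 1 line per library, with exact 95% Poisson intervals. Each line is near 0 at the luminal end, peaks at a ratio of 0.33 to 3 and is lower at the basal end.

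Along the keratin balance, Pthlh peaked between a ratio of 0.33 and 3 rather than at the basal end. In corn oil replicate 1 it was highest at a ratio of 0.33 to 1, at 176 CPM, and fell to 94.7 CPM in cells over 30. In corn oil replicate 2 it was highest at 1 to 3, at 149 CPM, against 42.9 CPM over 30. In 4OHT replicate 1 the peak was 332 CPM at 0.33 to 1, and in 4OHT replicate 2 it was 281 CPM at 1 to 3. Both fell to near 82 CPM at the basal end, where they were 82.3 and 81.1 CPM. In 6 of the 7 ranges of the balance both 4OHT libraries lay above both corn oil libraries. The exception was the range over 30, where the groups overlapped. At 10 to 30 the margin was small, 99.4 CPM in 4OHT replicate 1 against 98.4 CPM in corn oil replicate 1, with overlapping intervals. At 0.1 to 0.33 the corn oil libraries held only 3 and 1 Pthlh UMIs.

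A droplet with a basal and a luminal cell would meet this rule too. The median depth of the class was 6413 and 3663 UMIs in corn oil and 5447 and 3168.5 in 4OHT, above that of basal cells in each library. Scrublet, which scores cells by their likeness to simulated doublets, placed 7.67%, 8.93%, 4.22% and 7.39% of them among the cells left out as likely doublets, against 2.14% to 2.98% of basal cells. Without those, their Pthlh level was 138 and 175 CPM in corn oil and 290 and 295 CPM in 4OHT. The level stayed above that of basal cells in all 4 libraries. Their progenitor markers (Elf5, Kit, Aldh1a3 and Cd14) summed to 51.0 to 82.6 CPM, against 13.7 to 20.2 CPM in basal cells. Within the class the positive cells held 1.79 and 0.64 times as much of these as the negative cells in corn oil. In 4OHT they held 0.34 and 0.32 times as much, so the direction differed between libraries. For Wfdc18, Csn3 and Ltf the ratio was 0.17 to 0.80. Luminal keratins in positive cells were 0.96 to 1.46 times those of negative cells, and the part of doublets in the class was not tested beyond these values.

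The design compares 4OHT with the vehicle in mice that all carry the floxed alleles and the transgene. No mice without these were given 4OHT, so an effect of 4OHT itself cannot be told apart from deletion of Tfap2c. As given above, the counts do not test the deletion. Basal Pthlh averaged 97.4 ± 14.5 CPM in corn oil and 150 ± 0.42 CPM in 4OHT (SD, n = 2 each). The fitted log2 change was 0.68 ± 0.22 (SE), with an adjusted p of 0.999 over 10788 genes in edgeR's quasi-likelihood test, where Pthlh ranked 179 by unadjusted p. The change therefore did not pass the threshold of 0.05. Some luminal transcripts in basal cells moved with it. Epcam, Cldn3 and Cldn4 summed to 858 and 878 CPM in corn oil and to 1137 and 921 CPM in 4OHT, without overlap. Krt18 stood at 583 and 561 CPM in corn oil and at 852 and 802 CPM in 4OHT, also without overlap. Krt8 overlapped, at 504 and 652 CPM in corn oil and at 629 and 813 CPM in 4OHT. The part of luminal transcripts in the Pthlh difference was not tested beyond the keratin limits given below. Of all genes tested in basal cells, 0% passed (0 genes, with 465 at an unadjusted p under 0.05, and 38 called by DESeq2), and 13% had both 4OHT libraries above both corn oil libraries, as Pthlh had. An exact permutation test of 2 libraries against 2 cannot go below p = 0.33, which is the value it gave here. Leaving out the 93 basal cells with endothelial, fibroblast, leukocyte or pericyte markers gave a log2 change of 0.67. With a stricter keratin limit of 10 times, the basal level was 93.9 and 68.3 CPM in corn oil and 97.2 and 110 CPM in 4OHT, and the log2 change was 0.43 ± 0.28 (SE; edgeR, adjusted p = 0.877).

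In cells with both keratin sets the mean was 142 ± 17.8 CPM in corn oil and 275 ± 10.7 CPM in 4OHT (SD, n = 2 each), without overlap. The log2 change was 1.08 ± 0.25 (SE; edgeR, adjusted p = 0.999). Here 0% of 8876 genes passed (253 had an unadjusted p under 0.05, and DESeq2 called 1, which was not Pthlh), and 7.85% had non-overlapping libraries in this direction. With the replicate number as a block, the adjusted p of Pthlh in these cells was 0.0285 in edgeR, with a log2 change of 1.09.

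Of the 4 classes fitted, progenitor cells had the largest log2 change, from 1.38 ± 0.39 CPM in corn oil to 8.74 ± 1.76 CPM in 4OHT (SD, n = 2 each), or 2.76 ± 0.47 (SE). Pthlh had the lowest unadjusted p of 10120 genes in the edgeR fit, but its adjusted p was 1.00. Of the genes tested there, 0% passed (166 had an unadjusted p under 0.05, and DESeq2 called 1, which was not Pthlh), and 7.33% did not overlap in this direction. The Pthlh call depended on the fit. Its edgeR adjusted p was 3.4e-05 without a filter on low counts, 0.0235 with the replicate number as a block and 0.0012 to 0.0485 with any 1 library left out, and DESeq2 gave 0.104. Without the cells of the highest doublet scores the levels were 1.00 and 1.22 CPM in corn oil and 5.70 and 8.05 CPM in 4OHT.

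Progenitor cells that held a Pthlh UMI numbered 8 and 9 in corn oil and 44 and 27 in 4OHT. Of these, 7 and 7 in 4OHT and 1 of the corn oil cells held more than 1 Pthlh UMI, and a single cell of 4OHT replicate 2 held 15 of that library's 62. Their median sum of basal transcripts was 1 and 1 UMI in corn oil and 2 and 2 in 4OHT, against 1 in the negative cells of every library. Progenitor cells without any UMI of Krt5, Krt14, Krt17 or Acta2 held Pthlh at 0.45 CPM (1 UMI) and 1.40 CPM (3 UMIs) in corn oil and at 3.94 CPM (12 UMIs) and 3.33 CPM (8 UMIs) in 4OHT. In these cells Pthlh was too low to be fitted. The part of free RNA from Pthlh-rich cells of the same library in the progenitor values was not tested.

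In hormone-sensing cells the groups overlapped in CPM, though not in the thinned share, with a log2 change of 0.75 ± 0.66 (SE; edgeR, adjusted p = 1.00). It was -0.01 without corn oil replicate 2, which held 3 Pthlh UMIs in this class. Of 7589 genes, 0.0132% passed, which was 1 gene, Ctsr, a cathepsin named here after its value was seen. Whether the 4OHT effect differed between classes was tested with an interaction term and the library as a block, a test added after the values were seen. The fitted change in progenitor cells exceeded that in basal cells by 2.09 ± 0.39 on the log2 scale (SE), which did not pass (edgeR, adjusted p = 1.00), and 0% of 11434 genes passed (429 at an unadjusted p under 0.05). For cells with both keratin sets against basal cells the difference was 0.44 ± 0.22 (SE; edgeR, adjusted p = 0.804). Of 10916 genes 0.0366% passed, which were the 4 genes Fabp4, Csn2, BC018473 and Hist1h4i, also named after their values were seen.

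Genes that varied with Pthlh from cell to cell were ranked by the mean of the within-library Pearson correlations over thinned basal cells, among 4247 genes of at least 20 CPM. The cells of a library share its preparation and were set to equal depth. The values are given without a test, and all were weak. The highest mean r was 0.20, for Slc2a1, the main glucose transporter of many cell types, with 0.21 and 0.20 in corn oil and 0.23 and 0.18 in 4OHT. Next came Adm (0.20), which encodes the vasodilator peptide adrenomedullin, Ndrg1 (0.20), a gene induced by low oxygen and stress, and the cytokine gene Mif (0.19). Ero1l (0.19) encodes an oxidase for disulfide bonds in the endoplasmic reticulum. Of the other 10, glycolytic enzymes were Ldha (0.18), Gapdh (0.18), Tpi1 (0.17), Aldoa (0.17), Pgam1 (0.17) and Eno1 (0.16). The last 4 were the gap junction gene Gja1 (0.17), the translation factor Eif1 (0.17), the stress gene Ddit4 (0.17) and the mitochondrial gene Fam162a (0.17). Gapdh and other glycolytic genes have many near-identical pseudogenes, so their counts are less certain. All 15 were positive in each of the 4 libraries.

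**Figure D3:**
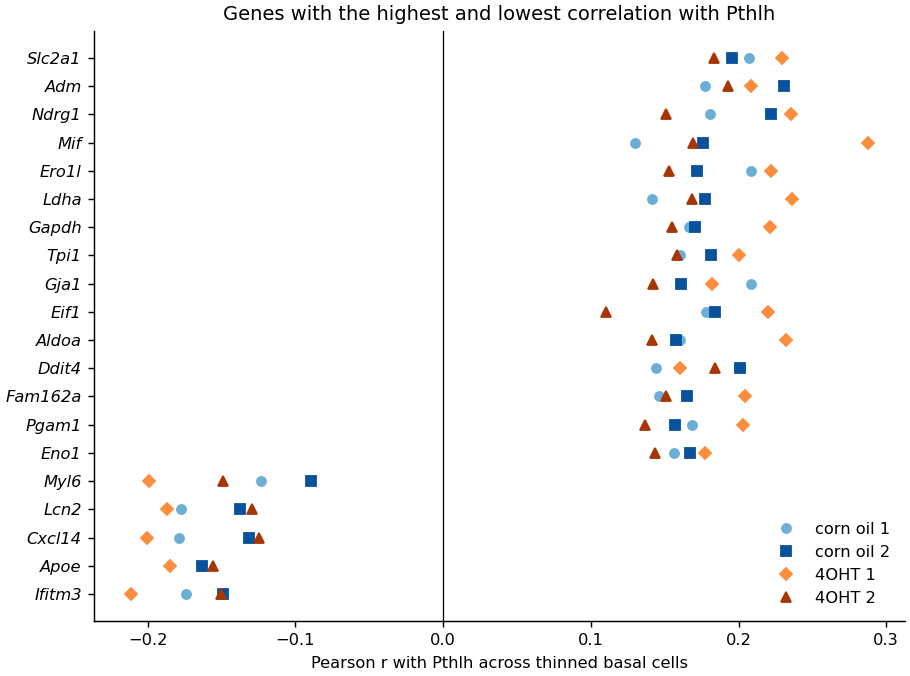
Pearson r with Pthlh across basal cells thinned to 2000 UMIs (horizontal axis) for the 15 genes with the highest and the 5 with the lowest mean, 1 point per library. The points of each gene fall on 1 side of 0 in all 4 libraries, and no value is above 0.29.

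At the other end stood Ifitm3 (-0.17), an interferon-inducible gene, Apoe (-0.17), Cxcl14 (-0.16), a chemokine gene, Lcn2 (-0.16), an iron-binding defence protein, and Myl6 (-0.14), a myosin light chain. The median over all 4247 genes was near 0, at -0.0019. In cells with both keratin sets, 13 of the 15 leading genes again had a positive r in all 4 libraries, and 4 of the 5 lowest had a negative r in all 4. Under 4OHT the 15 leading genes had a median log2 change of -0.07 in basal cells, 5 of them positive, and 0 had an unadjusted p under 0.05 in edgeR, with 0 called by DESeq2. Basal genes as a whole had a median of -0.02.

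The same cells were also divided into those with and without a Pthlh UMI after thinning, which gave 213 to 319 positive and 1086 to 1537 negative cells per library. Of 4247 genes, 0.235% (10 genes) were at least 1.5 times higher in positive cells in all 4 libraries and 1.3% (55 genes) at least 1.5 times lower. These genes were counted on the same cells that Pthlh divided, so nothing is read from the counts. The 10 highest ratios were held by the noncoding Meg3, the homeobox genes Irx3 and Prrx1, the linker histone gene H1f0, Adm, Plet1, Ero1l, the ubiquitin ligase gene Wwp2, Hist1h4i and Prelid2. For Irx3 the positive cells held 381 CPM against 209 CPM in corn oil replicate 1 and 451 against 220 CPM in replicate 2. Adm and Ero1l were on both lists of leading genes. Among the lowest correlations, Lcn2 stood at 505 against 1463 CPM and at 1491 against 2458 CPM in the corn oil libraries.

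Cells were then ordered by summed levels of 12 short gene lists that stand for states of basal cells. Pthlh per cell was compared between cells above the upper and cells up to the lower tertile limit of each list, per library. Tied low counts made these groups unequal. For the interferon, Krt16, cell cycle and stem cell lists, cells with any UMI of the list were compared with cells without one. For the interferon list in corn oil replicate 1 these were 340 against 1122 cells. The lists were chosen with results of these data known. Pthlh was higher at the top in all 4 libraries for 4 lists. For hypoxia and glycolysis (Vegfa, Slc2a1, Pgk1, Ldha, Bnip3, Ndrg1, Ero1l and Ankrd37) the ratio was 4.81 and 5.04 in corn oil and 8.95 and 4.18 in 4OHT. It was 2.83 to 5.23 for chaperones of the endoplasmic reticulum, which fold secreted proteins, 2.91 to 4.63 for Edn2, Adm and Crispld2, and 1.13 to 1.81 for the list led by Krt16, Vcam1 and Cd109. It was lower in all 4 libraries for 5 lists: contractile genes (0.39 to 0.69), interferon-stimulated genes (0.41 to 0.66), antioxidant and heat shock genes (0.23 to 0.52), YAP targets (0.69 to 0.99) and cell cycle genes (0.54 to 0.96). Immediate early genes, NF-kB targets and proposed stem cell genes differed in direction between libraries. The lists partly restate the correlations above, as 4 of the 8 hypoxia and glycolysis genes were among the genes of highest correlation. Adm, also among those, held 44283 basal UMIs, against 1856 of Edn2 and 4346 of Crispld2 in its list. Mean r with Pthlh was 0.05 for Edn2 and -0.0033 for Crispld2, so the ratio of that list rests mostly on Adm. In the cell cycle list Pcna held 793 basal UMIs, against 55 of Top2a, the next highest, so that ratio rests mostly on Pcna. Of the contractile genes, Lmod1 had a positive r in all 4 libraries (mean 0.04), and the others had a negative mean r.

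**Figure D4:**
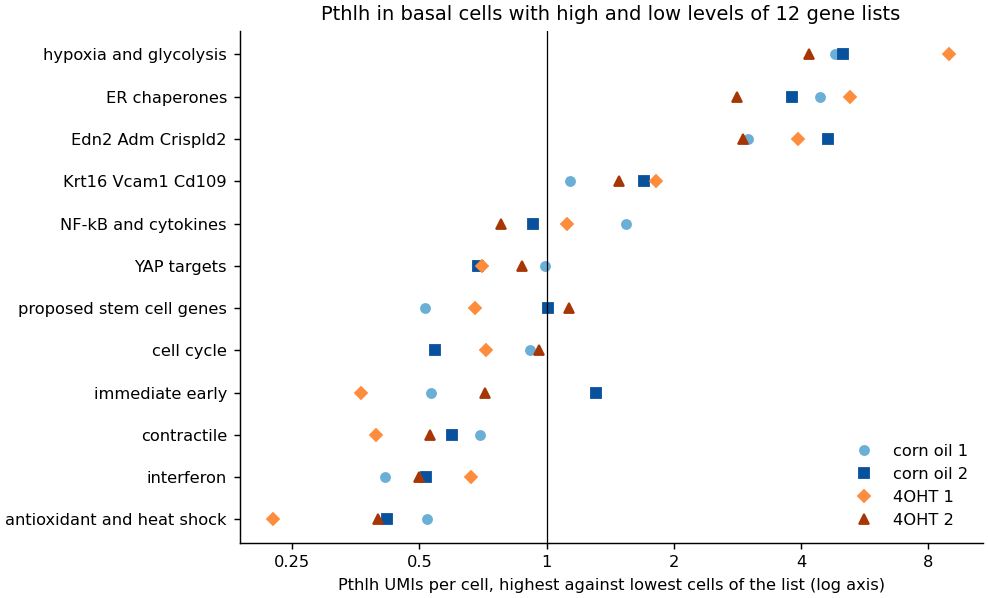
Ratio of Pthlh UMIs per cell between the highest and the lowest basal cells of 12 gene lists (log axis), 1 point per library, at 2000 UMIs per cell; the vertical line marks 1. Hypoxia and glycolysis, chaperones, and Edn2, Adm and Crispld2 lie above 2.8 in all 4 libraries, and antioxidant and heat shock genes lie lowest, at 0.23 to 0.52.

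Tfap2c itself varied with Pthlh. Basal cells with a Tfap2c UMI held 1.91 and 2.05 times as much Pthlh as those without in corn oil, and 2.10 and 1.36 times as much in 4OHT. In cells with both keratin sets the ratio was 0.93 to 1.95. Among the transcripts that defined the class, cells above the median of Krt17 held 1.46 to 2.43 times the Pthlh of the others, and those above the median of Krt5 0.56 to 0.90 times. High Krt17 and low Krt5 therefore went with Pthlh in every library.

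Several of these lists differed between the groups in basal cells, though 0 of their genes passed in edgeR. Over all 10788 genes tested there, 465 had an unadjusted p under 0.05 in edgeR, and DESeq2 called 38. All 8 interferon-stimulated genes had a negative change and an unadjusted p under 0.05, with a median log2 change of -1.79, and DESeq2 called 6 (Irf7, Isg15, Ifit1, Ifit3, Oasl2 and Bst2). All 9 immediate early genes had a positive change, 4 of them at an unadjusted p under 0.05, with a median of 0.66, and DESeq2 called 0. The 8 NF-kB and cytokine genes were likewise all positive, 4 at an unadjusted p under 0.05, with a median of 0.88, and DESeq2 called 1, Ptgs2. Of the Krt16 list, 3 genes could be tested and all were positive, with a median of 1.26 and 2 at an unadjusted p under 0.05, and DESeq2 called 1, Cd109. The other DESeq2 calls were Edn2 (edgeR log2 change 1.83), of the 3 genes in its list, and Ankrd1 (1.79), of the 7 YAP targets. The 8 antioxidant and heat shock genes had a median of -0.17, with 1 positive and 0 called by DESeq2. In edgeR 2 of them had an unadjusted p under 0.05, Hmox1 (-0.82) and Gclm (-0.84). Of the 7 proposed stem cell genes, 2 had an unadjusted p under 0.05 in edgeR, in opposite directions, Tspan8 (1.37) and Dll1 (-1.04). The part of these shifts in the Pthlh difference was not tested.

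The hypoxia and glycolysis list, which had the highest mean ratio, had a median log2 change of -0.28 in basal cells, with 1 of 8 genes positive, 0 at an unadjusted p under 0.05 and 0 called by DESeq2. Their summed level in basal cells was 11875 and 8675 CPM in corn oil and 7827 and 8537 CPM in 4OHT, so the 4OHT libraries were lower, 1 of them by a small margin. In cells with both keratin sets it was higher than in basal cells of the same library, at 13366 and 14648 CPM in corn oil and 14281 and 13858 CPM in 4OHT. Basal cells with 0 to 9 UMIs of these genes held 7.41 and 7.14 Pthlh UMIs per 100 cells in corn oil and 12.3 and 14.3 in 4OHT. With 40 or more they held 38.87 and 34.6 in corn oil and 59.7 and 45.4 in 4OHT. Within each of the 4 ranges of these genes, in basal cells and in cells with both keratin sets alike, both 4OHT libraries held more Pthlh than both corn oil libraries.

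**Figure D5:**
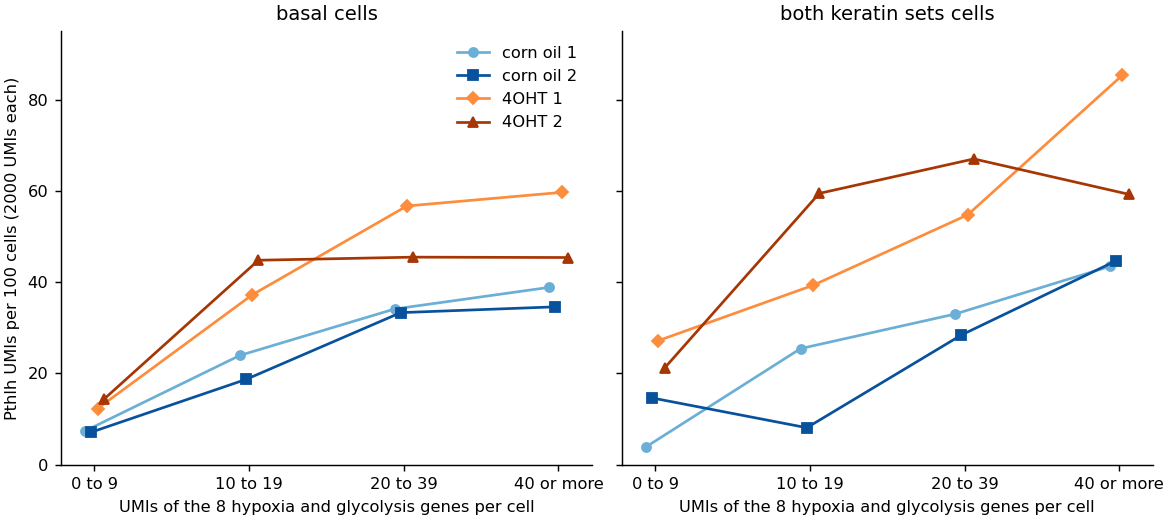
Pthlh UMIs per 100 cells (vertical axis) in cells with 0 to 9, 10 to 19, 20 to 39 and 40 or more UMIs of 8 hypoxia and glycolysis genes (horizontal axis), with every cell thinned to 2000 UMIs, 1 line per library. In basal cells the lines start at 7.14 to 14.3 and end at 34.6 to 59.7, and both 4OHT lines lie above both corn oil lines throughout both panels.

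The other genes of the pathway were taken from 10 lists of 67 genes in all. Levels below are means of the 4 libraries in basal cells. Of the ligands, neither Pth, the parathyroid hormone gene, nor Pth2 had a UMI in basal cells. Of the receptors, Pth1r had 16 UMIs among 7028 basal cells, 1 in cells with both keratin sets, 1 in progenitor, 2 in hormone-sensing and 3 in the 151 fibroblast-marked cells, and Pth2r had none. In the embryo Pth1r is a receptor of the mesenchyme, and few cells of that kind are in these libraries. The convertase Furin, which cuts the precursor of secreted peptides, stood at 43.7 CPM and Pcsk5 at 14.7 CPM, while Pcsk1 had no UMI. Of the signal chain behind the receptor, the G protein gene Gnas stood at 757 CPM and the kinase subunit Prkar1a at 153 CPM.

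Casr, the calcium-sensing receptor, had no UMI in basal cells, and neither had the calcium pump Atp2b2. The pump Atp2b1 stood at 108 CPM and the calcium sensor Stim1 at 112 CPM. Hedgehog ligands were near absent, with 0 UMIs of Shh, 1 of Ihh and 5 of Dhh, and Gli1 had 4. Of factors known to act on the gene, Ets1 stood at 34.1 CPM, Ets2 at 100.4 CPM and Runx1 at 341 CPM. The TGF-beta genes, whose product raises Pthlh in several tissues, stood at 49.1 CPM (Tgfb1), 29.2 CPM (Tgfb2) and 20.1 CPM (Tgfb3). Of the bone resorption pair, Tnfsf11 had no UMI in basal cells and its decoy Tnfrsf11b had 29.

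Under 4OHT, 46 of the 67 genes could be tested in basal cells, and 0 rose or fell past the threshold in edgeR, nor did DESeq2 call any (0). Genes of the lists with a positive change and an unadjusted p under 0.05 were Pthlh, Plcb1 (log2 change 0.72), Pde4d (0.87) and Tgfb2 (0.62). Of the 46, 20 had a positive change, with a median of -0.07 against -0.02 over all 10788 genes. Tgfb2 was at 22.0 and 24.8 CPM in corn oil and at 36.9 and 33.2 CPM in 4OHT, without overlap. Plcb1 did not overlap either, at 9.02 and 7.65 CPM in corn oil and 14.1 and 12.4 CPM in 4OHT. Nor did Pde4d, at 11.2 and 8.26 CPM in corn oil and 22.2 and 12.8 CPM in 4OHT. Of all genes tested in basal cells, 13% had both 4OHT libraries above both corn oil libraries.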

How the data were processed

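Each deposited matrix gives whole-number UMI counts, not normalized, per gene and barcode. Cell Ranger 3.0.1 with mm10 (GRCm38.91) produced these counts, per the labels' design text. Strand and intron settings are not given in the sources used here. Pthlh, the classes and all gene lists were chosen with earlier results of these data known. Classes were set by the keratin rule given above, with no clustering. Counts were summed per library and class and divided by the summed UMIs to give CPM. The 4 sums were compared with edgeR 4.0.16 (TMM, filterByExpr, quasi-likelihood test, Benjamini-Hochberg adjustment over all genes), and DESeq2 1.42.0 was an alternative. The replicate is the library, 1 mouse each. Intervals for CPM are exact 95% Poisson intervals and cover counting error only. Scrublet (scanpy 1.11.5) marked under 0.15% of cells at its own threshold, which was taken as a failure, so the cells with the highest scores, 0.8% per 1000 cells, were left out as an alternative only. Thinning drew UMIs at random without replacement from each cell, with a fixed seed. Named genes were the PTH ligands and receptors, list members of at least 10 CPM in basal cells, the 15 highest and 5 lowest correlations, the 10 highest ratios (10 CPM added to both sides), and, outside this rule, genes named to spell out small counts or absences. The edgeR script was tested on simulated counts. Positions come from GENCODE M21, the sequence from RefSeq.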

Additional observations from a re-analysis of the deposited data

Results flagged for a closer look

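Cells with fewer than 1000 UMIs entered no comparison. They numbered 37 and 90 in corn oil and 139 and 125 after 4OHT, and they held 0, 1, 5 and 7 Pthlh UMIs. The 4OHT levels in them, 49.65 CPM (95% Poisson interval 16.1 to 116) and 75.61 CPM (30.4 to 156), were above those of corn oil, 0 CPM and 14.99 CPM (0.38 to 83.5), which drew attention to data left out of the report. The floor that a count of 0 allows in corn oil replicate 1 reaches an upper bound of 134 CPM, so the intervals overlap and a difference was not detectable at this depth.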

How the results depend on the processing

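The basal log2 change of Pthlh kept its direction and stayed short of the threshold under all 16 alternatives, between 0.43 and 0.78. With 1 library left out it was 0.59 to 0.78 (the remaining lone library of a group is assumed to vary like the other group). The replicate block gave 0.67 with an adjusted p of 0.064. The labels do not say that equal replicate numbers share anything, and with 2 pairs (correlation of deviations 0.57 in basal cells) the numbers were not taken as pairs. The number of basal genes called was 0 in the main analysis, 93 without a filter, 38 with DESeq2, 167 with the replicate block and 17 to 127 with 1 library left out; the cause was not tested. In progenitor cells the change passed the threshold without a filter (2.77), with the replicate block (2.76) and with any 1 library left out (2.48 to 3.04), though not in the main fit (2.76) or with DESeq2 (2.79). In hormone-sensing cells it was -0.014 without corn oil replicate 2, and -0.014 to 2.29 over the libraries left out. In cells with both keratin sets the change passed with the replicate block (1.09). With a keratin ratio of 10 the mean level was 92.5 CPM in basal and 2.91 CPM in progenitor cells. With 1 library left out the mean was 115 to 136 CPM in basal and 3.42 to 6.38 CPM in progenitor cells. Thinning to 1000 and 3000 UMIs moved the share of positive cells, as fewer or more UMIs were kept, to 9.22% and 20.3% in basal, 0.37% and 1.02% in progenitor and 0.54% and 1.53% in hormone-sensing cells, and the keratin ratio of 10 gave 12.7% in basal cells. Of the 15 leading correlated genes, 13 to 14 were shared with each alternative ranking. With 2 libraries a group, small changes and counts of a few UMIs cannot be resolved.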
